A study of Mus musculus with 24 samples.

Results

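Polycomb repressor genes were followed in mouse cells on the route from pluripotency to the germ line. The 10 genes are Ezh2, Ezh1, Eed, Suz12, Jarid2 and Mtf2, which encode parts of Polycomb repressive complex 2 (PRC2), and Rnf2, Ring1, Bmi1 and Cbx7, which encode parts of Polycomb repressive complex 1 (PRC1). They were taken by name. Every probe set that the array annotation lists for 1 of these symbols alone was used, which gave 33 probe sets of 45101 on the array, for 10 of 18194 genes. No probe set was listed for a member together with another symbol (0 probe sets).

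Polycomb complexes keep developmental genes silent. PRC2 places methyl groups on lysine 27 of histone H3 through the enzymes EZH2 or EZH1, which work only in a complex with EED and SUZ12, while JARID2 and MTF2 are accessory subunits that help to bring the complex to CpG-rich promoters. PRC1 adds ubiquitin to histone H2A through RNF2 (also called RING1B) or RING1, each paired with a PCGF protein such as BMI1, and CBX proteins such as CBX7 bind the PRC2 mark. In mouse embryonic stem cells the complexes hold differentiation genes in check, and germ cells remodel the mark on lysine 27 of histone H3 as they form.

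RNA was measured on 24 Affymetrix mouse arrays, in 12 groups of 2, all from the strain C57BL/6. The unamplified set held 6 groups: embryonic stem cells (ESCs) kept in 2i+LIF medium without feeder cells, epiblast-like cells (EpiLCs) on days 1, 2 and 3 after induction from those ESCs, epiblast stem cells (EpiSCs) taken into culture from the epiblast of embryonic day 5.75, and PGCLCs, cells resembling primordial germ cells, made from day 2 EpiLCs. The amplified set held ESCs, day 2 EpiLCs, EpiSCs and PGCLCs, and from embryos PGCs (primordial germ cells) of embryonic day 9.5 and the epiblast of embryonic day 5.5 to 6; its cDNA went through 22 cycles of PCR from 5 ng of RNA, the amount of 500 cells. The study set EpiLCs beside the epiblast and PGCLCs beside PGCs to characterise the cells made in culture. The sorting of PGCLCs and PGCs, the pooling of embryos and the EpiSC medium are not given in the labels. The 2 arrays of a group are biological replicates by label, but whether from different cultures or litters is not stated, and p-values therefore cover only the spread between these samples.

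Array medians lay between 41.1 and 49.2 on unamplified and between 36.2 and 40 on amplified arrays. Precision is limited by how many arrays there are. The defining markers matched the labels: the summed intensity of 5 naive pluripotency genes was 12400 and 12700 in unamplified ESCs, that of 5 postimplantation epiblast genes was 16700 and 17800 in the embryo epiblast, and that of 5 germ cell genes was 13800 and 16900 in PGCs. Another 3 genes, listed as later germ cell markers, were not raised. They summed to 522 and 368 in PGCs against 708 and 637 in the epiblast. All 5 fibroblast markers were above the filter level in EpiSCs, with sums of 5480 and 5320 on unamplified arrays against 351 and 357 in day 2 EpiLCs. In the epiblast, 4 of 5 visceral endoderm markers were above that level, with sums of 2430 and 528. The replicates of amplified EpiSCs stood apart from each other (r = 0.934 over genes, against 0.965 for the next lowest pair of amplified arrays), so results that rest on them are also given without them. On amplified arrays the 5′ probe set of Actb read between 0.0503 and 0.206 of the 3′ one, against 0.792 to 0.874 on unamplified arrays.

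The promoters of 5 members are shown for their unlike falls from ESCs to day 2 EpiLCs on unamplified arrays. Eed, Suz12, Mtf2 and Rnf2 fell 1.45-fold to 1.94-fold. Ezh2, which encodes the main enzyme of PRC2, fell 1.13-fold and had the narrowest range of the members over the 6 unamplified groups. Each window runs from 250 bases before to 50 bases after a RefSeq start in the build GRCm38.p6, 5′ to 3′ on the strand of the gene. Capitals mark literal matches, on either strand, to CCAAT, to GGGCGG, and to the E2F-type sequences TTTGGCGC and TTTCCCGC; adjoining or overlapping matches run together. The Ezh2 window is chr6:47594981-47595280 (minus strand), the Eed window chr7:89980927-89981226 (minus strand), the Suz12 window chr11:79992856-79993155 (plus strand), the Mtf2 window chr5:108065424-108065723 (plus strand, the first of its RefSeq starts), and the Rnf2 window chr1:151500942-151501241 (minus strand).
Ezh2: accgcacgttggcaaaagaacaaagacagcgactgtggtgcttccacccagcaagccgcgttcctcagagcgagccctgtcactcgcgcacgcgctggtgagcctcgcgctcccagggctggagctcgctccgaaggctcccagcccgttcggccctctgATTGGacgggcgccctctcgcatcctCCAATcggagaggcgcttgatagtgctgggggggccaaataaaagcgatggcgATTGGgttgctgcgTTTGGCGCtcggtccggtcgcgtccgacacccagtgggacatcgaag
Eed: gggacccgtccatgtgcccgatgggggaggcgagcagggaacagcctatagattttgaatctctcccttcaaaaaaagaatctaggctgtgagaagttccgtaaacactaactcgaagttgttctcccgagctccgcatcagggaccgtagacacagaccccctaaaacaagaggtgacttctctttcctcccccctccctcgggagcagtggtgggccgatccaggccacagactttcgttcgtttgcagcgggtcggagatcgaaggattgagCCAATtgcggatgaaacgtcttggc
Suz12: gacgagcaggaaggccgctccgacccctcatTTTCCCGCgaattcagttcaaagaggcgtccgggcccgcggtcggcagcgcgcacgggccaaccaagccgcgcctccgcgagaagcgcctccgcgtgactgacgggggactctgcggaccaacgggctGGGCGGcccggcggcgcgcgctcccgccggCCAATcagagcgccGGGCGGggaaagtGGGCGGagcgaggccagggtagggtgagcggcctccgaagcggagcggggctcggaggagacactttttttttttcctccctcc
Mtf2: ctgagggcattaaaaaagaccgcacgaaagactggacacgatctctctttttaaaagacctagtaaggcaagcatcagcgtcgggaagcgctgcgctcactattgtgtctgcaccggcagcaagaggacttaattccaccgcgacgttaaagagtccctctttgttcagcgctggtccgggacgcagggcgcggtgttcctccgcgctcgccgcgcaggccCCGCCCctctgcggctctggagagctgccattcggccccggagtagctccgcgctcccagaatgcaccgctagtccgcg
Rnf2: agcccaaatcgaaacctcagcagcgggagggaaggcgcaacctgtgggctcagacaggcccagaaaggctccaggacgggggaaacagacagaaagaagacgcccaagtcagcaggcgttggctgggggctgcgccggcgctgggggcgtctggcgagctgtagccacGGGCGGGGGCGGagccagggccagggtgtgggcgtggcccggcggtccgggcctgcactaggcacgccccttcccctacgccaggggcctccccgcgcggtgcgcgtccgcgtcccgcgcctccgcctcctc
All 10 members had a window, and the table held 32851 windows of 300 bases in all. The 5 printed windows hold 17 (Eed) to 41 (Suz12) CpG dinucleotides, against a median of 7 over all windows. TTTGGCGC occurs in 0.514% of all windows and among the members only in that of Ezh2, and TTTCCCGC occurs in 1.07% of all windows and among the members only in that of Suz12. CCAAT is in 37.4% and GGGCGG in 35.7% of all windows. Of the 10 members, 6 and 7 have them in at least 1 window. The members have 12 windows in all, so these counts by gene are not like the shares by window. For Mtf2 the CCAAT matches are in a second window that is not printed. These matches describe letters in the windows and were not tested against the expression values.

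A gene is said below to have risen or fallen where its log2 difference had an adjusted p under 0.05 in limma, with 2 arrays against 2, and a stricter count also asks for a fold of at least 2. A gene is represented by its probe set of highest average log2 signal across the 24 arrays, which need not be the brightest in each set: for Mtf2 its median was 931 on unamplified arrays, where other Mtf2 probe sets reached 2730. All 10 members were tested in both sets. On unamplified arrays all 10 members differed among the 6 groups (F test), where 79.5% of all genes tested did. On amplified arrays only Jarid2 did (adjusted p = 0.048), against 29.7% of all genes. With a block for the replicate number 5 members and 44.7% of all genes differed, and without the first EpiSC array 7 members and 43.7% of all genes did. Fewer cells of a type and less RNA per cell cannot be told apart in such bulk samples.

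**Figure D1:**
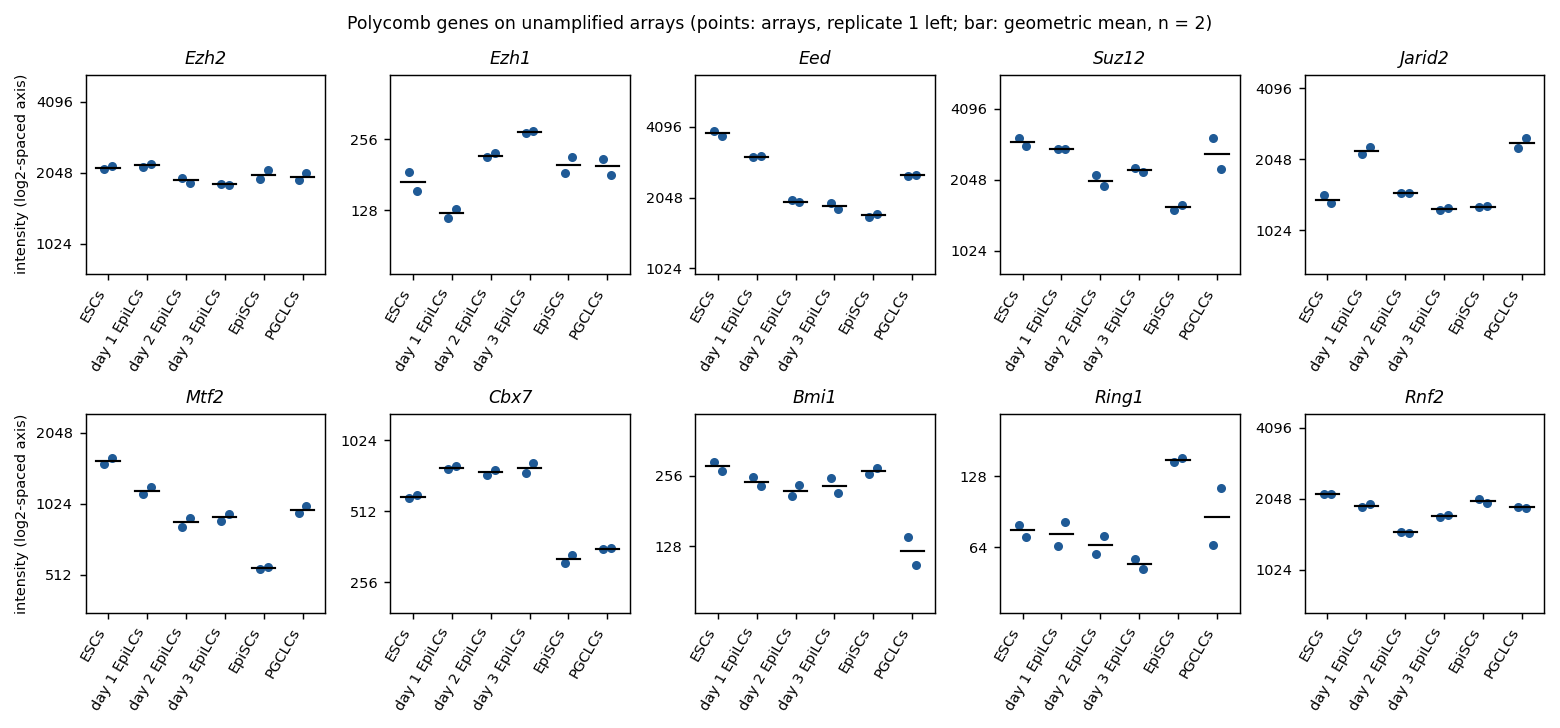
Intensity of the 10 members on each unamplified array, on log2-spaced axes that span at least a factor of 7 per panel; points are arrays and bars are geometric means of 2 arrays. Eed and Mtf2 were highest in ESCs, Jarid2 was high on day 1 and in PGCLCs, Cbx7 was lowest in EpiSCs and PGCLCs, and Ezh2 spanned only 0.27 on the log2 scale.

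Eed, the subunit that binds the methylated histone and stimulates the enzyme, fell early and did not fully return. Its intensity was 3920 and 3750 in ESCs, 3040 and 3070 on day 1, 1990 and 1960 on day 2, 1940 and 1840 on day 3, 1690 and 1740 in EpiSCs, and 2530 and 2540 in PGCLCs. The groups did not overlap between any neighbouring pair in that order of time, and PGCLCs lay between day 1 and day 2. Day 2 EpiLCs were 1.94-fold below ESCs (log2 -0.96 ± 0.05 SE, adjusted p = 5.48e-08), with a fall on day 1 (-0.33 ± 0.05) and a larger one from day 1 to day 2 (-0.63 ± 0.05). In PGCLCs Eed was higher than in day 2 EpiLCs by 0.36 ± 0.05 (adjusted p = 7.67e-05), and the order of all groups held beyond the error except for days 2 and 3 (-0.07 ± 0.05, adjusted p = 0.382). These Eed calls were lost with the mean of both its probe sets, of which the second was too dim to be tested.

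Suz12, which holds PRC2 together, took a similar path with a delay. It read 3070 and 2840 in ESCs, 2760 and 2770 on day 1, 2140 and 1930 on day 2, 2290 and 2200 on day 3, 1520 and 1600 in EpiSCs, and 3060 and 2280 in PGCLCs. The PGCLC replicates spread widest, so that one of them reached the ESC level. Day 1 did not differ from ESCs beyond the error (-0.10 ± 0.11, adjusted p = 0.554), and the fall came between day 1 and day 2 (-0.45 ± 0.11, adjusted p = 0.0105), to 1.45-fold below ESCs (-0.54 ± 0.11, adjusted p = 0.00212). That second step missed the threshold when either day 1 array or the second day 2 array was left out (highest adjusted p = 0.0941).

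Ezh2 itself, the main methyltransferase, stayed within a narrow band. The lowest of its 12 unamplified values was 1820 and the highest 2240, with 2120 and 2190 in ESCs and 1940 and 1860 in day 2 EpiLCs. Its fall from ESCs to day 2 passed the test at a size of 1.13-fold (-0.18 ± 0.06, adjusted p = 0.0253), and it missed the threshold without either ESC array, without the second day 2 array and after quantile normalization (highest adjusted p = 0.175). Among neighbours in the order of its group means no pair differed beyond the error. Ezh1, the second methyltransferase, which is better known from non-dividing cells, dipped and then rose: 185 and 154 in ESCs, 119 and 129 on day 1, 214 and 223 on day 2, 273 and 278 on day 3, 184 and 216 in EpiSCs, and 211 and 181 in PGCLCs. Day 1 lay below ESCs (-0.45 ± 0.13, adjusted p = 0.0164) and day 2 above day 1 (0.82 ± 0.13, adjusted p = 0.000656). With the mean of its probe sets both calls were lost, at -0.1 ± 0.16 and 0.3 ± 0.16 (adjusted p = 0.672 and 0.197). The fall on day 1 missed the threshold without the first ESC array or the first day 1 array as well. For day 2 above ESCs (0.37 ± 0.13, adjusted p = 0.0359) the call was lost without the second ESC array or without either day 2 array (highest adjusted p 0.258), with the mean of the probe sets (0.358), after median centring (0.0662) and with only the 4 arrays compared (0.0517). The log2 ratio of Ezh2 to Ezh1, set to a mean of 0 in ESCs, was 0.52 and 0.44 on day 1 and -0.93 and -0.96 on day 3.

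Mtf2, a Tudor-domain accessory subunit that binds unmethylated CpG DNA, had the widest range of the members on unamplified arrays, 1.5 on the log2 scale. Its values were 1510 and 1600 in ESCs, 1130 and 1200 on day 1, 818 and 893 on day 2, 866 and 928 on day 3, 542 and 553 in EpiSCs, and 934 and 999 in PGCLCs. In this probe set, which stands for Mtf2, ESCs were above and EpiSCs below every other group, without overlap. Its other probe sets put PGCLCs nearer to ESCs. The brightest on unamplified arrays read 3480 and 3580 in PGCLCs against 3850 and 3840 in ESCs. Another overlapped, at 1400 and 1420 against 1390 and 1490, and a dim one was higher in PGCLCs, at 74.9 and 82.6 against 69.8 and 66. In the probe set that stands for Mtf2, day 2 was 1.81-fold below ESCs (-0.86 ± 0.07, adjusted p = 2.17e-06). EpiSCs were a further 1.56-fold lower than day 2 EpiLCs (-0.64 ± 0.07, adjusted p = 1.79e-05). Jarid2, which contacts PRC2 and DNA, went the other way. It rose from 1440 and 1330 in ESCs to 2150 and 2320 on day 1 and was back at 1480 and 1480 on day 2. Day 3 EpiLCs and EpiSCs were lower still, at 1250 and 1270 and at 1290 and 1300, while PGCLCs reached 2290 and 2510. The day 1 rise (0.69 ± 0.06, adjusted p = 8e-06), the fall to day 2 (-0.59 ± 0.06, adjusted p = 5.25e-05) and the rise in PGCLCs (0.70 ± 0.06, adjusted p = 3.71e-06) kept an adjusted p under the threshold under each of 13 alternatives, and none of them reached a fold of 2.

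Among the PRC1 genes, Rnf2, the main H2A ubiquitin ligase, fell by day 2 of induction, as Eed and Suz12 did. It read 2150 and 2140 in ESCs, 1900 and 1950 on day 1, 1490 and 1470 on day 2, 1710 and 1750 on day 3, 2050 and 1960 in EpiSCs, and 1890 and 1880 in PGCLCs. Replicates differed by at most 0.06 on the log2 scale, and day 2 was the lowest group, 1.45-fold below ESCs (-0.53 ± 0.05, adjusted p = 4.07e-06). It was then higher on day 3 (0.22 ± 0.05), in EpiSCs (0.44 ± 0.05) and in PGCLCs (0.35 ± 0.05) than on day 2. The small fall on day 1 (-0.16 ± 0.05, adjusted p = 0.0188) missed the threshold without any 1 of the ESC or day 1 arrays, and the other falls and rises did so with the mean of all 5 Rnf2 probe sets, 1 of which was too dim to be tested. Its paralogue Ring1 was dim, between 51.7 and 81.6 in ESCs and EpiLCs, against a filter level of 28.1. In PGCLCs it read 65.1 and 114, and in EpiSCs 147 and 153, above every other array.

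Bmi1, a PCGF subunit of canonical PRC1 best known for holding back the Cdkn2a locus, passed in no step of EpiLC induction, with 292 and 268 in ESCs, 253 and 230 on day 1, 209 and 233 on day 2, 249 and 215 on day 3 and 259 and 276 in EpiSCs. By day 2 it was 0.34 ± 0.14 below ESCs (log2, adjusted p = 0.0639). This fall passed after median centring (adjusted p = 0.0396), with the mean of both probe sets (0.0268) and with only the 4 arrays compared (0.0324). The second Bmi1 probe set read 165 and 161 in ESCs and 112 and 118 on day 2. In PGCLCs the main probe set read 140 and 107, below all 10 other unamplified arrays. Cbx7, a chromodomain reader of the PRC2 mark and the CBX protein prevalent in ESCs, rose slightly on induction, from 582 and 597 in ESCs to 771 and 792 on day 1, 731 and 766 on day 2 and 740 and 815 on day 3. EpiSCs (307 and 333) and PGCLCs (352 and 358) lay far below all of these. The rise on day 1 was 0.41 ± 0.07 (adjusted p = 0.000939) and that by day 2 was 0.34 ± 0.07 (adjusted p = 0.00223). Both were lost with the mean of the 3 Cbx7 probe sets (adjusted p = 0.991 and 0.446).

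Counted over the members, day 2 EpiLCs against ESCs gave 2 that rose (Ezh1 and Cbx7) and 5 that fell (Ezh2, Eed, Suz12, Mtf2 and Rnf2), 7 of 10 where 46% of all genes changed, 23.3% upward and 22.6% downward. None of the 10 reached a fold of 2, where 16.5% of all genes did. On day 1, 2 rose and 4 fell, against a background of 39.9% (18.1% up, 21.8% down). From day 1 to day 2, 1 rose and 6 fell, against 32.3% (18.5% up, 13.8% down). From day 2 to day 3, 1 rose (Rnf2) and 1 fell (Jarid2), against 25.7% (12.4% up, 13.3% down). Each of those counts fell in some or all of the fits that left out 1 array, as described in the last section. From day 2 to day 3, Jarid2 (-0.23 ± 0.06) missed the threshold without any 1 of the 4 arrays. Ezh1 is not in the count from day 2 to day 3, as its main probe set gave 0.33 ± 0.13 (adjusted p = 0.0825 in limma). Fitted singly, 2 of its 3 tested probe sets rose in this step, and the 3 values ran from 0.33 to 1.17. The value of 1.17 came from a probe set that read 93.5 and 210 on day 3. A rise of Ezh1 was also called when its probe sets were averaged. That average includes 1 too dim to be tested, at 1 and 4.16 on day 2. Another was under the filter level on day 2, at 21.7 and 20.8. The median log2 difference of the members was -0.28 for day 2 against ESCs and 0.01 over all genes. Every member that passed a comparison had the same sign within each array-name code that held both groups.

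**Figure D2:**
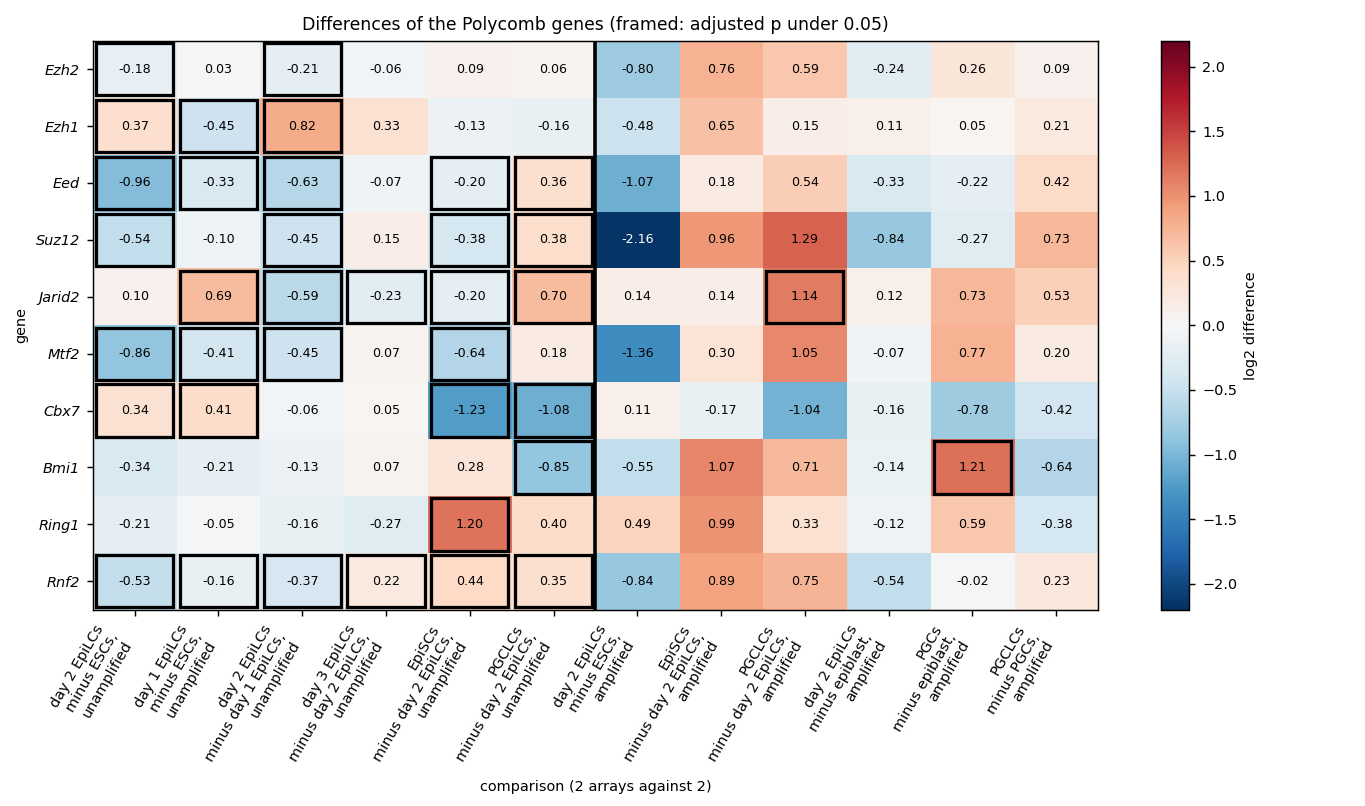
Log2 difference of each member (rows) in the 6 unamplified and 6 amplified comparisons (columns, split by the thick line), with frames where the adjusted p was under 0.05. Framed cells are frequent on unamplified arrays and number only 2 on amplified arrays, Jarid2 in PGCLCs (1.14) and Bmi1 in PGCs (1.21).

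On unamplified arrays EpiSCs, set against day 2 EpiLCs, had less Cbx7 and Mtf2 RNA and more Ring1 RNA. Of the 10 members 2 rose (Ring1 and Rnf2) and 5 fell (Eed, Suz12, Jarid2, Mtf2 and Cbx7), where 52.3% of all genes changed, 30.6% upward and 21.7% downward. A fold of 2, which 18.9% of all genes passed, was reached by Cbx7, 2.34-fold lower (-1.23 ± 0.07, adjusted p = 1.85e-07), and Ring1, 2.3-fold higher (1.2 ± 0.24, adjusted p = 0.00159). Both kept their call under all 13 alternatives. The falls of Jarid2 (-0.20 ± 0.06) and Suz12 (-0.38 ± 0.11) were lost without single arrays: Jarid2 without any 1 of the 4, and Suz12 without the first array of either group (adjusted p = 0.112 at most). The sums of the 5 fibroblast markers, 5480 and 5320 in EpiSCs and 351 and 357 in day 2 EpiLCs, moved with this comparison, and their part in the result was not tested.

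On unamplified arrays PGCLCs were set against the day 2 EpiLCs they were made from. The PRC2 genes Eed, Suz12 and Jarid2 and the PRC1 gene Rnf2 were higher, and the PRC1 genes Cbx7 and Bmi1 were lower. Of the members 4 rose (Eed, Suz12, Jarid2 and Rnf2) and 2 fell (Cbx7 and Bmi1), where 55% of all genes changed, 25.5% upward and 29.4% downward. A fold of 2 was passed by Cbx7 alone, and by 20.6% of all genes. Jarid2 rose 1.62-fold, Eed 1.28-fold and Rnf2 1.27-fold, with no overlap between the groups. The rise of Suz12 (0.38 ± 0.11, adjusted p = 0.0138) was lost with the mean of its probe sets (0.29 ± 0.12, adjusted p = 0.0638). It was also lost with only the 4 arrays compared (adjusted p = 0.105), and without the first PGCLC array (0.17) or the second day 2 array (0.3). Cbx7 fell 2.11-fold (-1.08 ± 0.07, adjusted p = 3.89e-07) and Bmi1 1.81-fold (-0.85 ± 0.14, adjusted p = 0.000319). The members' median was 0.26, and the median over all genes was -0.09. Mtf2 read 0.18 ± 0.07 higher with an adjusted p of 0.0512, just outside the threshold. In the same arrays 5 germ cell markers summed to 13100 and 13200 in PGCLCs against 537 and 607 in day 2 EpiLCs. The 3 later germ cell markers summed to 1140 and 957 in PGCLCs against 1460 and 1530. On amplified arrays Bmi1 ran the other way, at 152 and 194 in PGCLCs against 92.9 and 119 in day 2 EpiLCs (0.71 ± 0.34).

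Most members have further probe sets, and 30 of the 33 passed the filter on unamplified arrays. Each was fitted in a table of all probe sets, so adjusted p-values differ slightly. The day 1 rise of Jarid2 passed in 3 of 3 probe sets (0.69 to 0.84), as did its rise in PGCLCs (0.66 to 0.83). Mtf2 fell from ESCs to day 2 in 5 of 6 probe sets and Suz12 in 4 of 6, with all of them below 0 (-0.96 to -0.08 and -0.61 to -0.25). Mtf2 rose in PGCLCs in 4 of 6 (0.18 to 0.90), though not in the probe set that stands for it. Suz12 rose there in 2 of 6 (0.1 to 0.38). For Cbx7 the fall in PGCLCs passed in 2 of 3 probe sets and the third gave 0.26, and for Ezh1 the day 1 values ran from -0.45 to 0.38 with 1 of 3 called. Rnf2, with 4 tested probe sets, fell by day 2 in 2 of them and the 4 values ran from -0.87 to 0.02, and it rose in PGCLCs in 1 of 4 (0.05 to 0.58). In EpiSCs Mtf2 fell in 5 of 6 (-0.83 to -0.59) and Cbx7 in 2 of 3 (-1.23 to 0). Both Bmi1 probe sets fell in PGCLCs. For Ezh2, Eed and Ring1, 1 probe set each could be tested.

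**Figure D3:**
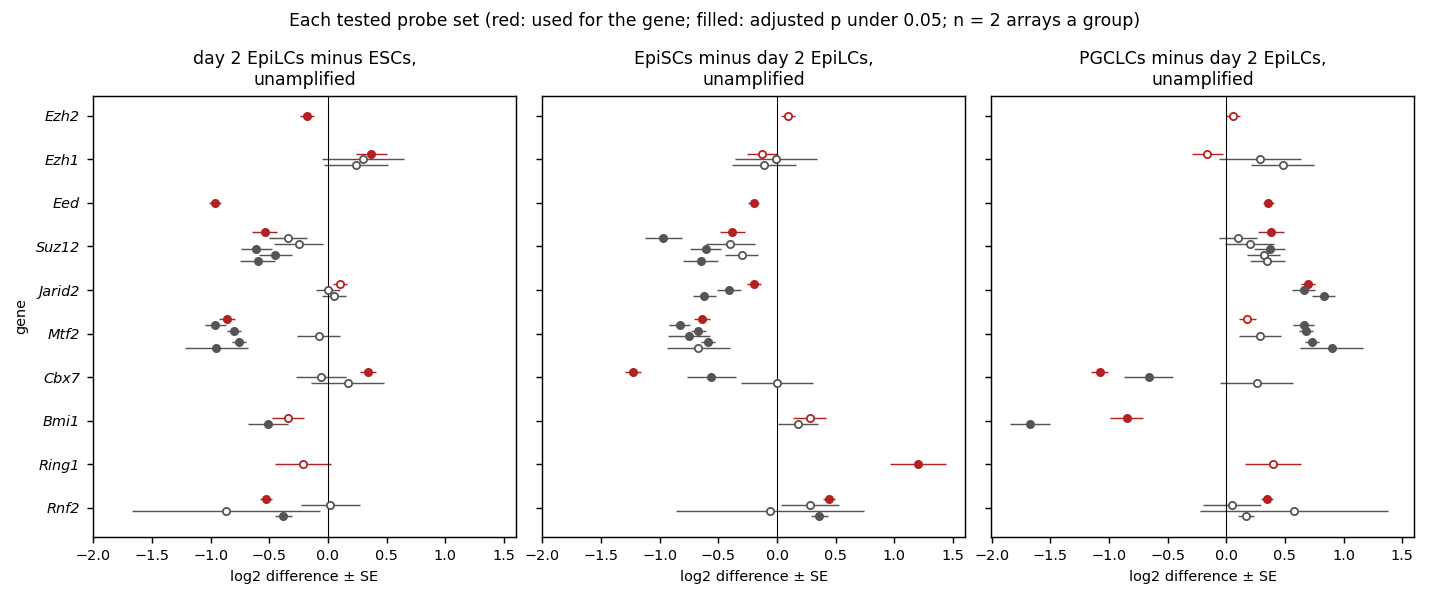
Log2 difference with standard error (horizontal axis) for every tested probe set of each member in 3 unamplified comparisons; red marks the probe set that stands for the gene and filled points had an adjusted p under 0.05. The Suz12 and Mtf2 probe sets lie together below 0 in the first panel, and both Bmi1 probe sets lie below 0 in the third.

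Amplified arrays repeated 3 of these comparisons on smaller amounts of RNA, with wider error. For day 2 EpiLCs against ESCs none of the 10 members passed in limma (0 of 10, where 8.93% of all genes did), and 4 had an unadjusted p under 0.05. The values ran the same way for 8 of 10 members. Suz12 read 971 and 2190 in ESCs and 334 and 317 in day 2 EpiLCs (-2.16 ± 0.65, adjusted p = 0.0746), Mtf2 1130 and 1380 against 463 and 518 (-1.36 ± 0.45, adjusted p = 0.103), and Eed 2760 and 3590 against 1560 and 1430 (-1.07 ± 0.40, adjusted p = 0.152). None of the 3 overlapped between the groups. With the replicate number as a block, which pairs these arrays, 15.5% of all genes changed and 4 members fell: Suz12 (adjusted p = 0.00509), Mtf2 (0.0297), Rnf2 (-0.84, 0.0298) and Eed (0.0471). Suz12, Mtf2 and Eed (3 members) fell when both EpiSC arrays were left out, a setting chosen after seeing the data in which 13.8% of all genes changed.

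For PGCLCs against day 2 EpiLCs on amplified arrays, Jarid2 alone passed (1 of 10, where 13.9% of all genes did, 7.12% upward). It read 2180 and 2380 against 1020 and 1050, 2.2-fold higher (1.14 ± 0.31, adjusted p = 0.0392). The call was lost without any 1 of these 4 arrays, with adjusted p up to 0.187, while the log2 difference stayed between 1.08 and 1.2 over all alternatives. With the replicate block 3 members rose, and 23% of all genes changed: Jarid2, Rnf2 (0.75 ± 0.22, adjusted p = 0.0367) and Suz12 (1.29 ± 0.38, adjusted p = 0.0388). Cbx7 was again lower in both arrays, at 602 and 533 against 1000 and 1350 (-1.04 ± 0.40, adjusted p = 0.129), close in size to its unamplified fall of -1.08. Without both EpiSC arrays Jarid2 and Mtf2 rose and Cbx7 fell (3 members), where 20.7% of all genes changed.

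For EpiSCs against day 2 EpiLCs on amplified arrays none of the 10 passed (13.7% of all genes did), 2 had an unadjusted p under 0.05, and 5 of 10 ran the same way as on unamplified arrays. The EpiSC replicates differed by up to 1.9 on the log2 scale, for Suz12 with 329 and 1220, and widely for Ezh2 with 1470 and 4640 and for Ezh1 with 170 and 582. Without the first EpiSC array 7 members rose and 0 fell, where 29.6% of all genes changed. Without the second 0 rose and 1 fell (Cbx7), where 10.7% of all genes changed. With the replicate block 3 rose, where 24.8% of all genes changed: Ring1 (0.99 ± 0.24, adjusted p = 0.0162), Rnf2 (0.89 ± 0.22, 0.0176) and Bmi1 (1.07 ± 0.29, 0.0275). Ring1, at 171 and 110 in EpiSCs against 82.2 and 58.1, was above day 2 EpiLCs in both array sets. The unamplified falls of Mtf2 and Cbx7 were not repeated. Mtf2 gave 0.3 ± 0.45 on amplified arrays. Cbx7 gave -0.17 ± 0.4, with 616 and 1740 in EpiSCs against 1000 and 1350.

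**Figure D4:**
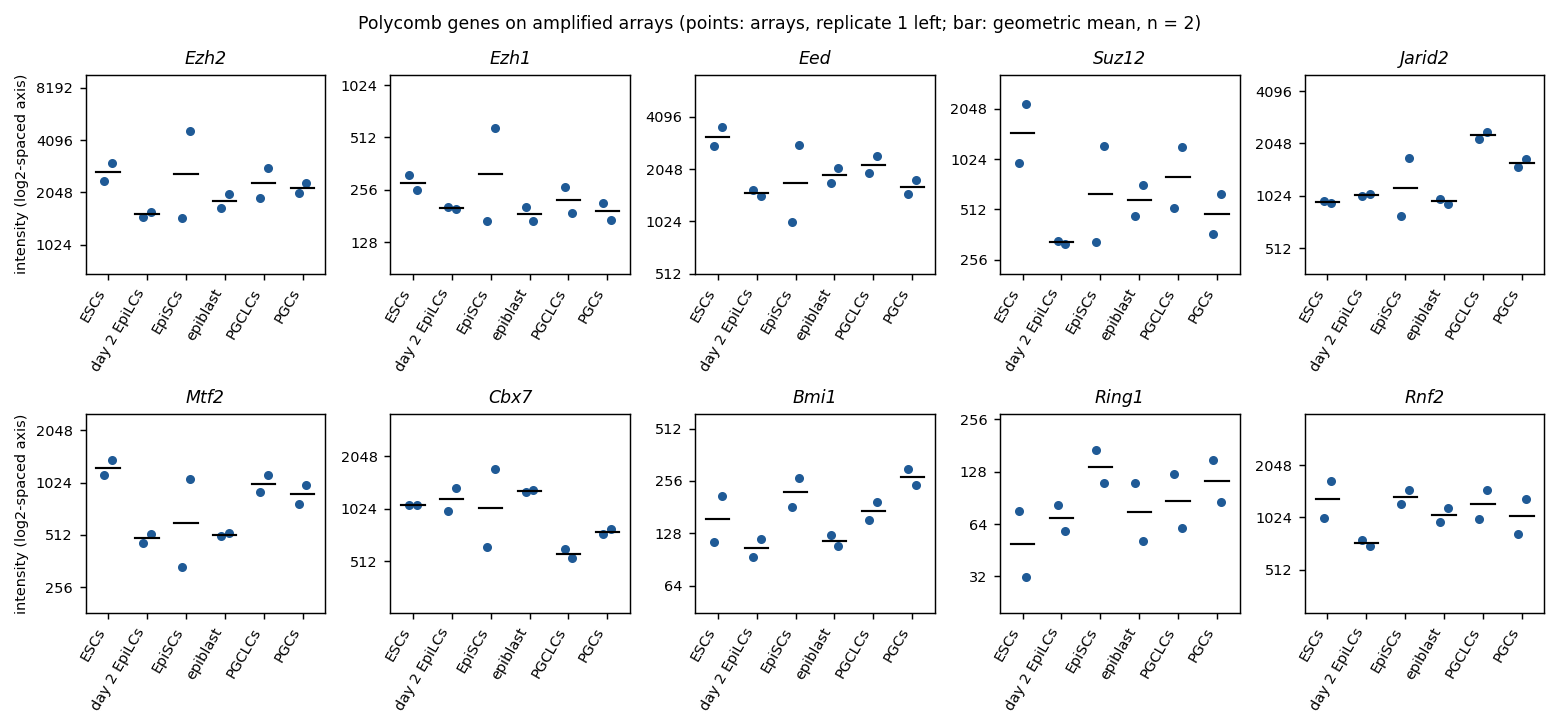
Intensity of the 10 members on each amplified array, on log2-spaced axes that span at least a factor of 14 per panel; points are arrays, with replicate 1 on the left, and bars are geometric means of 2 arrays. The EpiSC replicates lie far apart for most members, Jarid2 was highest in PGCLCs, and Cbx7 was lowest in PGCLCs and PGCs.

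The embryo groups set these values beside the cells that EpiLCs and PGCLCs stand for. Between day 2 EpiLCs and the epiblast no member passed in limma (0 of 10, with 0 at an unadjusted p under 0.05, where 0.961% of all genes passed). Jarid2 read 1020 and 1050 against 984 and 918, Mtf2 463 and 518 against 503 and 528, and Cbx7 1000 and 1350 against 1280 and 1320. The widest gap was that of Suz12, with 334 and 317 in EpiLCs and 470 and 718 in the epiblast (-0.84, 95% interval -2.3 to 0.63). Between PGCLCs and PGCs no member passed either (0 of 10, with 0 at an unadjusted p under 0.05, against 2.92% of all genes). Jarid2 was 2180 and 2380 in PGCLCs and 1490 and 1670 in PGCs (0.53 ± 0.31, adjusted p = 0.637). Its 95% interval ran from -0.17 to 1.23, that of Bmi1 from -1.4 to 0.11 and that of Cbx7 from -1.32 to 0.48, and a missed threshold does not show that the cells are alike. The replicate block left both counts at 0, with 2.22% and 5.66% of all genes.

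From the epiblast to PGCs Bmi1 alone passed (1 of 10, where 11.3% of all genes did, 6.55% upward). It rose 2.31-fold, from 125 and 108 in the epiblast to 298 and 241 in PGCs (1.21 ± 0.34, adjusted p = 0.0477), and its second probe set gave the same difference of 1.21. The call was lost without any 1 of the 4 arrays (adjusted p up to 0.239). The replicate block gave 1 member as well, with 18.6% of all genes. Jarid2 was higher in PGCs, at 1490 and 1670 against 984 and 918 (0.73 ± 0.31, adjusted p = 0.197), and Mtf2 too, at 776 and 992 against 503 and 528 (0.77 ± 0.45, adjusted p = 0.372). Cbx7 was lower, at 734 and 782 against 1280 and 1320 (-0.78 ± 0.4, adjusted p = 0.3). None of these groups overlapped. With both EpiSC arrays left out, Jarid2, Mtf2 and Bmi1 rose and Cbx7 fell (4 members), where 16.8% of all genes changed. The sums of the 5 visceral endoderm markers were 2430 and 528 in the epiblast and 425 and 343 in PGCs. Those of the 5 fibroblast markers were 279 and 258 in the epiblast and 1170 and 515 in PGCs, with Col3a1 at 22.9 and 22.1 against 817 and 334. The part of either in these values was not tested.

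Whether the step into the germ line differed between culture and embryo was tested as a difference of differences. None of the 10 members passed in limma (0 of 10 and 0 at an unadjusted p under 0.05, where 0.513% of all genes passed; 1.65% with the replicate block). The largest values were 1.56 ± 0.92 for Suz12 and 0.77 ± 0.46 for Rnf2, both higher in the culture step. The same kind of test asked whether a difference depended on amplification, and again no member passed, for day 2 EpiLCs against ESCs (0 of 10, background 0.866%), EpiSCs against day 2 EpiLCs (0 of 10, background 0.295%) or PGCLCs against day 2 EpiLCs (0 of 10, background 0.852%), with 1 member at an unadjusted p under 0.05 in each. For EpiSCs, 7 members passed once the first amplified EpiSC array was left out, as did 23.1% of all genes. Bmi1 in PGCLCs came nearest to the threshold among the full data. It was lower than in day 2 EpiLCs on unamplified arrays, at 140 and 107 against 209 and 233, and higher on amplified ones, at 152 and 194 against 92.9 and 119 (difference of log2 differences 1.56 ± 0.37, adjusted p = 0.0655 in limma). With the replicate block the adjusted p was 0.0206, and without the second amplified day 2 array it was 0.0445. Its second probe set moved in the same opposite ways (-1.67 and 0.75).

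Other Polycomb genes were grouped by role and are to be read against the shares of all genes given above for the same comparisons. Of 7 PRC2 partners 3 rose and 2 fell in day 2 EpiLCs against ESCs on unamplified arrays. Those with the largest differences were Ezhip, an inhibitor of EZH2, at least 1.37-fold higher and dim (33 and 44.8 against 18.3 and 21), Phf1, a relative of Mtf2 (-0.78 ± 0.17), and Epop, which joins MTF2-type PRC2 (-0.73 ± 0.21). In PGCLCs 1 of them rose (Phf1, 0.71 ± 0.17) and 5 fell, among them Epop (-0.97 ± 0.21) and Ezhip, which was at least 1.37-fold lower than in day 2 EpiLCs. In EpiSCs 2 rose and 4 fell, led by Epop (-1.73 ± 0.21). The list's median was -0.05, -0.34 and -0.18 in these comparisons, with medians over all genes of 0.01, -0.09 and 0.02. The histone binders Rbbp4 and Rbbp7, which PRC2 shares with other complexes, did not pass between ESCs and day 2 (-0.05 ± 0.06 and -0.15 ± 0.06).

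Canonical PRC1 partners were measured for 9 genes. The Polyhomeotic genes, whose products polymerise and cluster PRC1, changed in different directions. Phc1 rose from 1560 and 1690 in ESCs to 3900 and 3800 on day 2 (1.25 ± 0.11, adjusted p = 2.96e-06) and was back at 1890 and 1430 in PGCLCs and 1720 and 1770 in EpiSCs. Phc2 stayed at 122 and 117 on day 2 and rose to 466 and 499 in EpiSCs (2.01 ± 0.12) and 254 and 322 in PGCLCs (1.26 ± 0.12). Scmh1, a further sex-comb protein of the complex, peaked on day 1 (1.34 ± 0.16 above ESCs) and rose from 88.5 and 89.6 on day 2 to 163 and 209 in PGCLCs (1.05 ± 0.16). Counted together, 2 rose and 2 fell by day 2, 2 rose and 1 fell in EpiSCs, and 4 rose and 2 fell in PGCLCs, with medians of 0.08, -0.14 and -0.1. Among the CBX genes, Cbx6 fell in PGCLCs as Cbx7 did (-1.26 ± 0.15), while Cbx2, the reader active in germ line and skeletal patterning, rose from 254 and 278 to 388 and 606 (0.87 ± 0.17). The log2 ratio of Cbx7 to Cbx2, set to a mean of 0 in ESCs, was -1.85 and -2.46 in unamplified PGCLCs and -2 and -1.93 in PGCs, where ESCs of the same array set are 0. It was also below 0 outside the germ cells, at -1.15 and -1.06 in the epiblast and -1.32 and -1.28 in unamplified EpiSCs.

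Variant PRC1 complexes carry other PCGF proteins with RYBP or YAF2 in place of a CBX protein. Of 15 such genes 14 had a probe set and 13 were tested on unamplified arrays; Rybp had none of its own. Pcgf5 read 175 and 188 in ESCs and 210 and 201 on day 1, a step that did not pass, and then rose to 381 and 392 on day 2 and 651 and 723 on day 3. EpiSCs were at 685 and 687 and PGCLCs at 1890 and 2150. PGCLCs were 5.22-fold above day 2 EpiLCs (2.38 ± 0.08, adjusted p = 4.09e-09). It rose in the amplified PGCLCs too (2.85 ± 0.25, adjusted p = 0.000105) and from the epiblast to PGCs, with 265 and 221 against 1070 and 1320 (2.29 ± 0.25, adjusted p = 0.000432). Phc2 and Scmh1 likewise rose in all 3 germ cell comparisons. Yaf2 rose on day 2 (1.51 ± 0.13) and further in EpiSCs (1.5 ± 0.13), and fell in PGCLCs (-0.67 ± 0.13). Max rose in PGCLCs (1.04 ± 0.10) and Kdm2b, the CpG-binding subunit, fell (-0.92 ± 0.10). In PGCLCs 2 of 13 rose and 6 fell (median -0.17), in day 2 EpiLCs 6 rose and 3 fell (median 0.33), and in EpiSCs 4 rose and 4 fell (median -0.13).

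**Figure D5:**
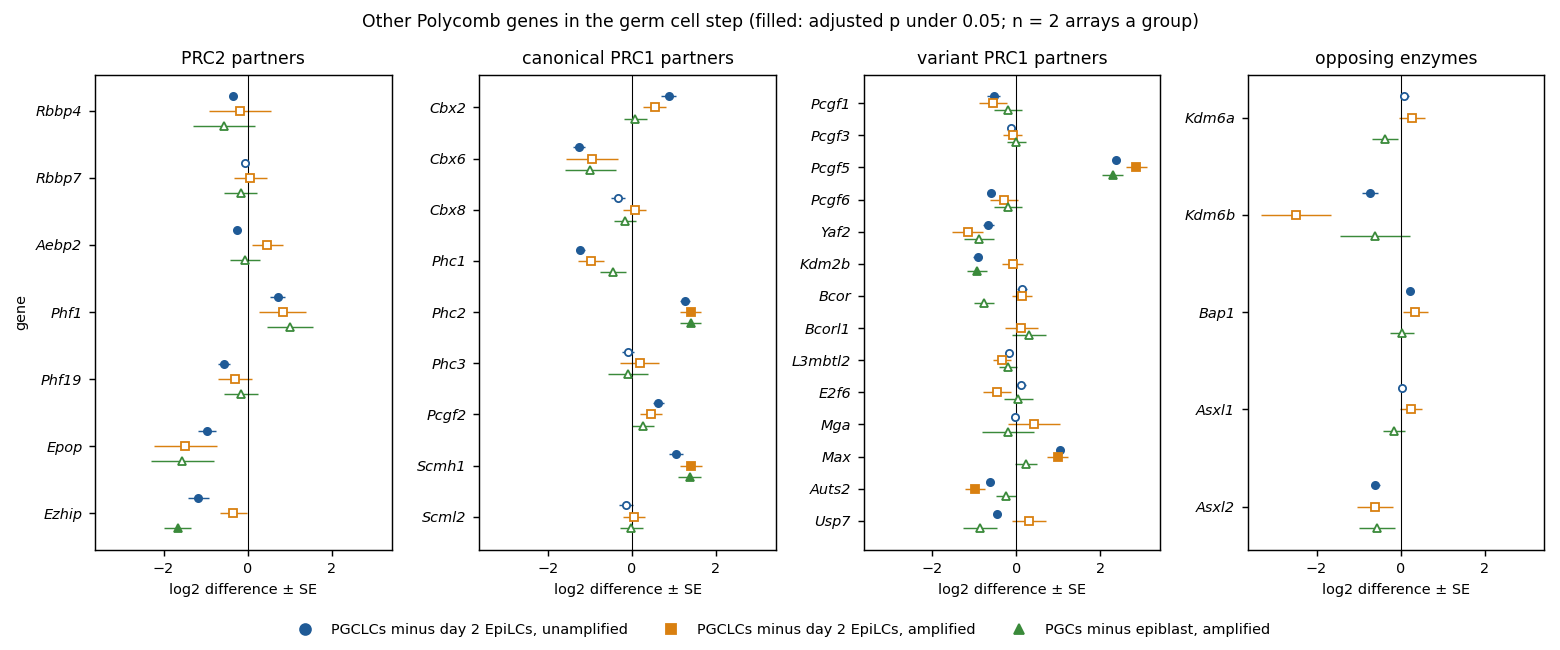
Log2 difference with standard error (horizontal axis) of other Polycomb genes in 3 germ cell comparisons, by role; filled symbols had an adjusted p under 0.05. Pcgf5, Phc2 and Scmh1 are filled and above 0 in all 3, whereas most amplified values are open.

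Enzymes that oppose Polycomb marks were all tested (5 of 5). Asxl1, a partner of the H2A deubiquitinase Bap1, rose by day 2 (0.64 ± 0.07) and was lower in EpiSCs (-0.75 ± 0.07), and Asxl2 moved likewise (0.40 ± 0.10 and -0.68 ± 0.10). The demethylase gene Kdm6b fell in PGCLCs (-0.73 ± 0.19, adjusted p = 0.00748) and Kdm6a did not pass there. Genes known from other studies as Polycomb targets in ESCs passed the filter for 13 of 18. By day 2 of EpiLC induction 3 rose and 2 fell (median -0.08). Wt1 went from 5.21 and 1.54 in ESCs, under the filter level, to 274 and 270 on day 1, at least 9.68-fold higher, and then to 117 and 129 on day 2. Cdkn1c rose from 58.5 and 50 to 325 and 299, and on to 2710 and 2270 in EpiSCs, while Olig2 fell (-2.01 ± 0.35). In PGCLCs 2 targets rose and 4 fell (median -0.36). Cdx2 was at 168 and 873, at least 13.6-fold above day 2 EpiLCs, and Olig2 and Wt1 were at least 3.48-fold and 4.37-fold lower. Cdkn2a, the classical target of Bmi1, fell from 300 and 322 on day 2 to 138 and 71.9 in unamplified PGCLCs (-1.64 ± 0.27), in which Bmi1 was lowest as well, and was below the filter level of 24 on all amplified arrays.

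The patterns closest to Mtf2 and Ring1, the 2 members with the widest range on unamplified arrays (on amplified arrays Suz12 was widest), were looked up over all genes tested on both sets, by the lower of the Pearson correlations over the 12 unamplified and over the 12 amplified arrays. For Mtf2 they were Fanci (0.876), Fut9 (0.872), Tet2 (0.867), Kat6b (0.860) and Alpk3 (0.853). For Ring1 they were Lyrm2 (0.909), Smad5 (0.850), Eny2 (0.846), Spef1 (0.844) and Atxn7l3b (0.834). Arrays of a group share their cells and amplified arrays share their amplification, so the values describe likeness and carry no p.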

How the data were processed

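Intensities were deposited by the authors as 1 linear value for each of 45101 probe sets on 24 arrays, from 1 to 17519. The labels describe Affymetrix target labelling and, for 12 arrays, PCR amplification. The sources used here do not name the software or the normalization behind the deposited intensities, which were used unchanged.

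Probe sets were named from the platform annotation: 34958 had 1 symbol, 932 had several and 9160 were not listed. Values under the 10th percentile (4.2) were set to that percentile before log2 was taken. A gene was tested in a set when 2 or more of its 12 arrays were above the 40th percentile, 28.1 (unamplified) or 24 (amplified), which left 14935 and 15609 genes, and 14554 in tests over both sets. A fold against a group under that level is given as "at least". limma 3.58.1 in R 4.3.3 fitted 1 mean per group over the 12 arrays of a set, with trended variances and 6 residual degrees of freedom. P-values are two-sided and were adjusted over all genes by the Benjamini-Hochberg method. An exact permutation test of 2 against 2 cannot give less than p = 0.33, so none was used. Differences are log2 ± SE with n = 2 per group.

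The fit was tested on simulated data first, with 50 genes changed at each size. On unamplified arrays it recovered 28%, 62% and 92% of log2 changes of 0.5, 1 and 2. On amplified arrays it recovered 0%, 8% and 54%. The simulated noise was independent between arrays. Fewer genes were changed than were called between ESCs and day 2 EpiLCs in the real data. These shares therefore need not hold for the real comparisons. A missed threshold on amplified arrays does not show that a gene is unchanged. Residuals of arrays with the same replicate number correlated above 0.1 in 15 of 15 pairs of amplified groups (0.11 to 0.61) and 3 of 15 unamplified. The numbers therefore pair the amplified arrays, where they also coincide with a code in the array names. On unamplified arrays the second replicates share a code, and so do the first replicates of ESCs and EpiLCs. The first replicates of EpiSCs and PGCLCs carry a different code, so code and cell type partly overlap in comparisons of these groups with EpiLCs.

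The members, the gene lists and the tests were chosen with earlier results of these data known. From each list the text names up to 3 genes per comparison with the largest difference among those that passed, and for the 2 members with the widest range on unamplified arrays the 5 genes of closest pattern; other genes named with values were chosen after their values were seen. Alternatives changed the floor, the filter, the scaling, the choice of probe set, the arrays fitted and the blocks. Promoter sequences are from RefSeq.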

Additional observations from a re-analysis of the deposited data

Results flagged for a closer look

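Bmi1 in PGCLCs against day 2 EpiLCs moved in opposite directions on the array sets, and the test of that difference passed once replicate numbers were blocked. The amplified minus unamplified difference was 1.56 on the log2 scale, with an adjusted p of 0.0206 in the blocked fit and 0.0655 without the block. All 4 unamplified arrays and all 4 amplified arrays followed the direction of their set. The 5′ to 3′ signal ratio of Gapdh lay between 1.13 and 1.21 without amplification and between 0.239 and 0.982 with it, and its part in the Bmi1 values was not tested.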

How the results depend on the processing

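A sign change was counted only where the value passed the test in either setting. This happened once: with the mean of its probe sets Eed was 0.20 lower (log2 -0.20, adjusted p = 0.461) in unamplified PGCLCs than in day 2 EpiLCs; the second Eed probe set did not pass the filter on low values. With the mean of the probe sets, 4, 2, 4 and 1 members passed for day 2 against ESCs, day 1 against ESCs, day 2 against day 1 and day 3 against day 2 on unamplified arrays. The first count includes Bmi1 (-0.42, adjusted p = 0.0268) and the last is Ezh1 (0.93, adjusted p = 0.00226), neither called in the main fit. The Ezh1 average includes a probe set too dim to be tested. Jarid2 and Rnf2, the main calls from day 2 to day 3, were lost. The same setting gave 1 and 0 for amplified EpiSCs and PGCLCs against day 2, and 1 (Bmi1) for dependence on amplification in PGCLCs. A required fold of 2 left 0, 0, 0 and 0 members in those 4 steps, and 2 and 1 for unamplified EpiSCs and PGCLCs. Raising low values to the 40th percentile gave 0 for PGCs against epiblast and 1 for dependence on amplification in PGCLCs; fitting without a filter gave 0 for amplified PGCLCs and 0 for PGCs, and fitting all probe sets 0 for PGCs. The replicate block on amplified arrays gave 4 members for day 2 against ESCs, 3 for EpiSCs, 3 for PGCLCs, 5 in the F test and 1 for dependence on amplification in PGCLCs, and moved no other count of members by over 1.5 times. On unamplified arrays, where the numbers follow the array-name code only in part (correlation over 0.1 in 3 of 15 pairs), it raised the PGCLC count from 6 to 7. With that code as a block the fall of Jarid2 in EpiSCs was lost (-0.16 ± 0.07, adjusted p = 0.0823). Mtf2 then passed in PGCLCs (0.16 ± 0.06, adjusted p = 0.0456). Fitting only the 4 arrays compared gave 2 and 2 for amplified day 2 against ESCs and PGCLCs against day 2. Without both amplified EpiSC arrays there were 3 for day 2 against ESCs, 3 for PGCLCs against day 2, 4 for PGCs against epiblast and 5 in the F test. Where no share or count of all genes is given for a setting, a changed count cannot be read as particular to the members.

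With 1 array left out at a time, where the lone array is assumed to vary like the other groups, unamplified counts ran from 5 to 6 (day 2 against ESCs), 4 to 5 (day 1), 5 to 7 (day 2 against day 1), 1 to 1 (day 3), 5 to 6 (EpiSCs) and 6 to 7 (PGCLCs), and all 10 members stayed in the F test. Amplified counts ran from 0 to 7 (EpiSCs), 0 to 0 (day 2 against ESCs, PGCLCs, PGCs against epiblast, day 2 against epiblast, PGCLCs against PGCs and the germ cell step) and 0 to 7 in the F test. Counts for dependence on amplification ran from 0 to 0 (day 2), 0 to 7 (EpiSCs) and 0 to 1 (PGCLCs). Over all genes, the required fold of 2 left 2458, 1797, 1201, 636, 2820 and 3081 of the unamplified 6863, 5960, 4829, 3844, 7815 and 8207. The block raised the amplified 1394 (day 2 against ESCs), 2135 (EpiSCs) and 2176 (PGCLCs) to 2416, 3871 and 3594, and leaving out 1 array gave 659 to 912, 1150 to 4614 and 1009 to 1333. For PGCs against epiblast 1766 became 2902 with the block and 793 to 1106 with 1 array left out, for day 2 against epiblast 150 became 347 and 23 to 69, and for PGCLCs against PGCs 456 became 883 and 91 to 284. The block also moved the amplified F test from 4637 to 6974 genes, the germ cell step from 80 to 258 and dependence on amplification from 126, 43 and 124 to 423, 311 and 523; low values at the 40th percentile moved the last 4 to 139, 266, 160 and 279. Only the 4 arrays compared gave 464 for EpiSCs, 11 for day 2 against epiblast and 0 for PGCLCs against PGCs, and without both EpiSC arrays day 2 against ESCs, day 2 against epiblast and PGCLCs against PGCs gave 2149, 286 and 780. The mean of the probe sets gave 82 for dependence on amplification in EpiSCs. With 2 arrays a group and a dim Ring1, small differences are beyond these data. The cause of these shifts was not tested, except where fewer arrays enter the fit.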
